A study of Mus musculus with 2 samples.

Results

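Prefix models are long-read transcript models that match the splicing of a longer transcript from its first exon but lack its last splice junctions. They were taken as every model that the deposited tables class as an incomplete splice match of the subtype Prefix, in either library. This gave 5576 models out of 199487 mouse models, 2610 of 89529 in replicate 1 and 2966 of 109958 in replicate 2, which together hold 4804 distinct intron chains. Total RNA of the adrenal gland was sequenced as long reads; the animals were male, of the strain B6CASTF1/J, a first-generation hybrid of C57BL/6J and CAST/EiJ, and 4 days old. The study had 1 group of 2 libraries, replicates 1 and 2, with no treatment and no control group. The labels give both libraries the same donor, while the tissue descriptions name different animals, so whether they come from separate animals cannot be told. With 1 library on each side, the p-values given compare the reads of these libraries: they cover counting error only, treat reads as separate molecules, and hold no spread between replicates. The description of the models as lacking an annotated 3′ end fits only part of them: 1304 of 2610 in replicate 1 and 1470 of 2966 in replicate 2 stopped exactly at an annotated transcript end of the same gene. They are called prefix models throughout.

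The 3′ end of most messenger RNAs is made by cleavage of the growing transcript and addition of a poly(A) tail, and the cleavage complex binds the hexamer AATAAA or its variant ATTAAA shortly upstream of the cut. A gene can carry further sites of this kind inside its introns, and use of such a site replaces the downstream exons by a stretch of intron. The U1 snRNP is known to hold these intronic sites back. A long read can also stop early for other reasons: the RNA can be broken, or the primer of reverse transcription can pair with a run of A inside the transcript.

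Sequences beside some of the ends that both libraries shared are shown here because they carry the patterns described further on. They were read from GENCODE mouse release 21 transcripts (GRCm38) where 1 annotated exon outside the annotated UTRs spanned 30 bases before and 20 bases after the end, and they were chosen after their values were seen. In the first set the capitals mark the 20 bases after the model end, in genes whose models stopped inside an exon in front of a stretch rich in A.
Son (chr16:91654670-91654719, plus strand): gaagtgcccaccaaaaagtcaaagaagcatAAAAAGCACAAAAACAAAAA
Rtf1 (chr2:119710967-119711016, plus strand): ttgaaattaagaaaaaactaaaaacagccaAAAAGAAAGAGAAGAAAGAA
Srrm2 (chr17:23809977-23810026, plus strand): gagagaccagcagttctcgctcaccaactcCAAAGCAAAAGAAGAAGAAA
Hsp90aa1 (chr12:110694155-110694204, minus strand): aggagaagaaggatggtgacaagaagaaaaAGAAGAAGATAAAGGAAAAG
Phf20 (chr2:156292499-156292548, plus strand): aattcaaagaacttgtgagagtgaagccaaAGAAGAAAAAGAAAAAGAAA
Sri (chr5:8062442-8062491, plus strand): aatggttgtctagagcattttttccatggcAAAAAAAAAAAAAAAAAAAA
In replicates 1 and 2 the models with these ends held 74 and 113 reads for Son, 6 and 8 for Rtf1, 6 and 6 for the leading Srrm2 model, 6 and 6 for Hsp90aa1, 2 and 2 for Phf20 and 3 and 4 for Sri. The 20 bases after the end held 16 A in Son, 15 in Rtf1, 14 in Srrm2, 13 in Hsp90aa1, 16 in Phf20 and 20 in Sri. Of these ends, only that of Son lay on no annotated boundary. Those of Srrm2, Hsp90aa1, Phf20 and Sri lay on an annotated transcript end and that of Rtf1 on another annotated exon boundary. Such coordinates need not be where reads stopped.

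In the second set the capitals mark AATAAA or ATTAAA in the 30 bases before the end.
Fam120b (chr17:15403997-15404046, plus strand): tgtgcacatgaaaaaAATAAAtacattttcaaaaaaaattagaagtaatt
Ric3 (chr7:109046729-109046778, minus strand): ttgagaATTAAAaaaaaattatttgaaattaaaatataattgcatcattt
Rsbn1 (chr3:103928589-103928638, plus strand): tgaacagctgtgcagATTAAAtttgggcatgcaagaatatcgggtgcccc
These models held 9 and 7 reads for Fam120b, 2 and 2 for Ric3 and 4 and 4 for Rsbn1. The hexamer began 15 bases from the end in Fam120b and Rsbn1 and 24 in Ric3. Fam120b had both features, with 13 A in the 20 bases after its end. The ends of Fam120b and Ric3 lay on no annotated boundary, and that of Rsbn1 on an annotated exon boundary.

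Replicate 1 held 707726 reads, 688436 of them assigned to mouse genes, and replicate 2 held 832552 and 810818. In CPM, read counts brought to a common total of mouse reads, the 8 cortex markers came to 46605.6 in replicate 1 against 31591.6 in replicate 2, and the 6 medulla markers to 12500.8 against 9290.62. All markers of both lists were read in both libraries. The 8 liver markers came to 443.0 CPM in replicate 1 against 17059.3 CPM in replicate 2, so liver transcripts were far more abundant in replicate 2. All intervals given are 95% Wilson intervals, and they describe counting error alone, because reads lacking molecular identifiers may be copies of 1 molecule.

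Prefix models were a small class. They held 4609 reads in replicate 1, or 0.669% of mouse reads (interval 0.650% to 0.689%), and 5132 reads in replicate 2, or 0.633% (0.616% to 0.650%). Suffix models, which match the 3′ part of a transcript and lack its 5′ exons, took 6.40% and 7.14% of mouse reads. Most prefix models rested on little evidence: 78.9% in replicate 1 and 75.8% in replicate 2 had a single read, against 68.4% and 66.2% of suffix models and 27.0% and 27.1% of known models. The largest prefix model held 148 reads in replicate 1 and 113 in replicate 2. The model of 148 reads, of Cyp21a1, stopped on an annotated transcript end. It was prefix only to a longer transcript newly built in that library. The models came from 2063 genes in replicate 1 and 2324 in replicate 2, with 985 genes in both and 3402 in either. Protein-coding genes supplied 96.9% and 97.4% of the models. Kank3, a gene of the KANK family of ankyrin-repeat proteins, had the most models, 10 in replicate 1 and 13 in replicate 2.

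The models stopped at 4 kinds of place, in nearly the same proportions in both libraries. In replicate 1, 1001 models (38.4%) ran on through at least 1 intron and ended in or past a downstream exon, 896 (34.3%) ended in the intron after their last spliced exon, 529 (20.3%) ended within 20 bp of that exon's edge and 183 (7.01%) ended inside it. In replicate 2 these classes held 1171 (39.5%), 997 (33.6%), 583 (19.7%) and 215 (7.25%) models. Among the models that reached a downstream exon, 81.5% in replicate 1 and 81.3% in replicate 2 stopped within 50 bp of an annotated end. A model of this class reaches at least the first base of an exon counted as lost.

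Many ends sat exactly on annotated coordinates. Counting the transcripts of any gene on the same strand, 1327 ends (50.8%) in replicate 1 and 1487 (50.1%) in replicate 2 lay on an annotated transcript end. A further 509 (19.5%) and 553 (18.6%) lay exactly on the donor edge of an annotated exon, and 107 (4.10%) and 150 (5.06%) on another exon boundary. By contrast, 3 models in replicate 1 and 8 in replicate 2 stopped 1 to 50 bp from an annotated end of their gene, and 45 and 47 stopped 1 to 20 bp from the edge of the last exon. A deposited end is therefore the coordinate of the model and need not be the position at which each read stopped. Only 667 models (25.6%) in replicate 1 and 776 (26.2%) in replicate 2 ended at no annotated boundary.

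**Figure D1:**
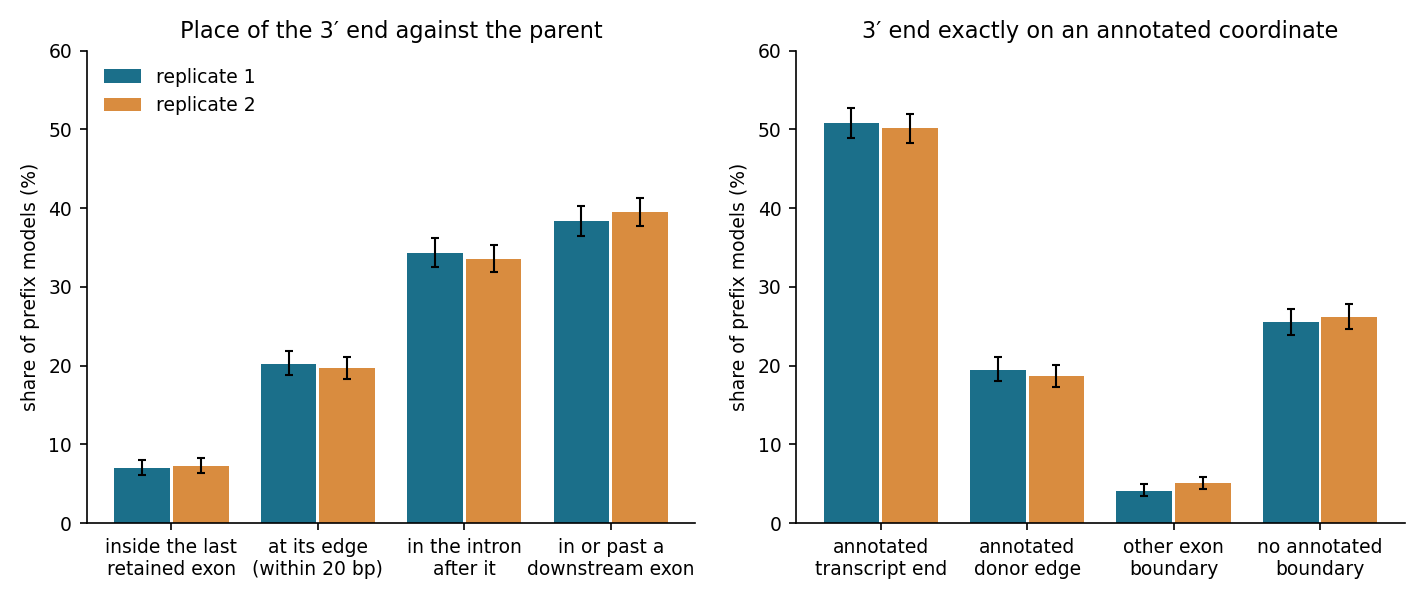
Share of prefix models (%) by the place of the 3′ end against the parent transcript (left) and by the annotated coordinate on which the end lies (right), in replicate 1 and replicate 2; bars are shares and error bars 95% Wilson intervals. In both libraries about as many models as not end on an annotated transcript end (50.8% and 50.1%), and ends inside the last retained exon are the rarest place (7.01% and 7.25%).

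Most prefix models lacked few exons, where an exon carried unspliced also counts as lacking. Counted against the compatible transcript that loses the fewest, the median loss was 2 exons in both libraries (interquartile range 1 to 5), and 42.7% of models in replicate 1 and 43.1% in replicate 2 lacked 1 exon. A loss of 10 or more exons was found for 323 models (12.4%) and 384 models (12.9%). The deepest losses were 89 exons in Herc2, a giant ubiquitin ligase, in replicate 1 and 74 exons in Hectd4, a HECT-domain protein, in replicate 2. Where the parent was coding, the models kept a median of 68.9% of its coding sequence in exons spliced as in the parent in replicate 1 (1826 models) and 67.0% in replicate 2 (2058 models), and 122 and 125 models kept all of it. The parent was a transcript newly built in the same library, with no annotated transcript compatible, for 439 models in replicate 1 and 510 in replicate 2; for 1 model in replicate 1 no parent was found.

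The share of ends with a poly(A) signal hexamer differed by the place of the end. AATAAA or ATTAAA, searched on the transcript strand only, lay in the 40 bases before 872 of 1297 readable prefix ends on an annotated transcript end in replicate 1 (67.2%) and 948 of 1453 in replicate 2 (65.2%). Known models gave 66.8% and 65.8%. Both are coordinates of the annotation, so these windows describe annotated ends and not where each read stopped. At ends on a donor edge the hexamers were found in 32 of 504 (6.35%) and 25 of 547 (4.57%), and in windows of the same length tiled over internal exons of coding transcripts in 5826 of 391993 (1.49%). Ends inside an exon lay between these values, with 28 of 158 (17.7%, interval 12.6% to 24.4%) and 32 of 175 (18.3%, 13.3% to 24.7%). With ends whose next 20 bases overlap an annotated UTR left out, the counts were 16 of 117 (13.7%) and 15 of 119 (12.6%). Of all 183 and 215 ends inside an exon, 115 and 140 lay on an annotated transcript end. For ends in an intron at no annotated boundary the check is void, because an annotated exon covered the window of only 36 of 514 ends (7.00%) in replicate 1 and 52 of 605 (8.60%) in replicate 2.

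Ends inside an exon were often followed by A. A stretch counted as A-rich when the 20 bases after the end held at least 12 A or a run of at least 6. In replicate 1 this held for 51 of 177 readable ends inside an exon (28.8%, interval 22.6% to 35.9%), and in replicate 2 for 61 of 201 (30.3%, 24.4% to 37.0%), while 1.04% of the tiled windows of internal exons of coding transcripts met the same criterion. With ends whose next 20 bases overlap an annotated UTR left out, the counts were 40 of 132 (30.3%) and 48 of 142 (33.8%). Among known models 8.06% and 8.18% of readable ends were A-rich, but only 23.2% and 24.0% of those ends could be read, which is too few for a comparison. Among ends inside an exon that both libraries shared, 29 of 47 (61.7%, 47.4% to 74.2%) in replicate 1 and 29 of 48 (60.4%, 46.3% to 73.0%) in replicate 2 were A-rich. Ends inside an exon that were not shared had 22 of 130 (16.9%, 11.4% to 24.3%) and 32 of 153 (20.9%, 15.2% to 28.0%). Outside annotated UTRs the shared ends had 23 of 32 (71.9%) and 23 of 33 (69.7%), and the ends not shared 17 of 100 and 25 of 109 (22.9%). The intervals of shared and not shared ends do not overlap in either library, but shared ends are largely the same positions in both and are not independent of each other. Models are counted here and not positions, so a position can also count repeatedly within a library. The A-rich end of Ggnbp2, for example, was held by several models in each library. The intervals treat these as separate and are no test. Of the ends inside an exon that lie on an annotated transcript end, 41 of 111 (36.9%) and 48 of 132 (36.4%) were A-rich, so the annotation itself holds part of these ends. At no annotated boundary, 7 of 33 (21.2%) and 7 of 30 (23.3%) readable ends inside an exon were A-rich. There the shared ends had 3 of 6 in each library, and the ends not shared 4 of 27 and 4 of 24. The contrast between shared and not shared ends thus rests mostly on ends at annotated coordinates, which need not be where reads stopped. Whether the A stretches primed reverse transcription was not tested.

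**Figure D2:**
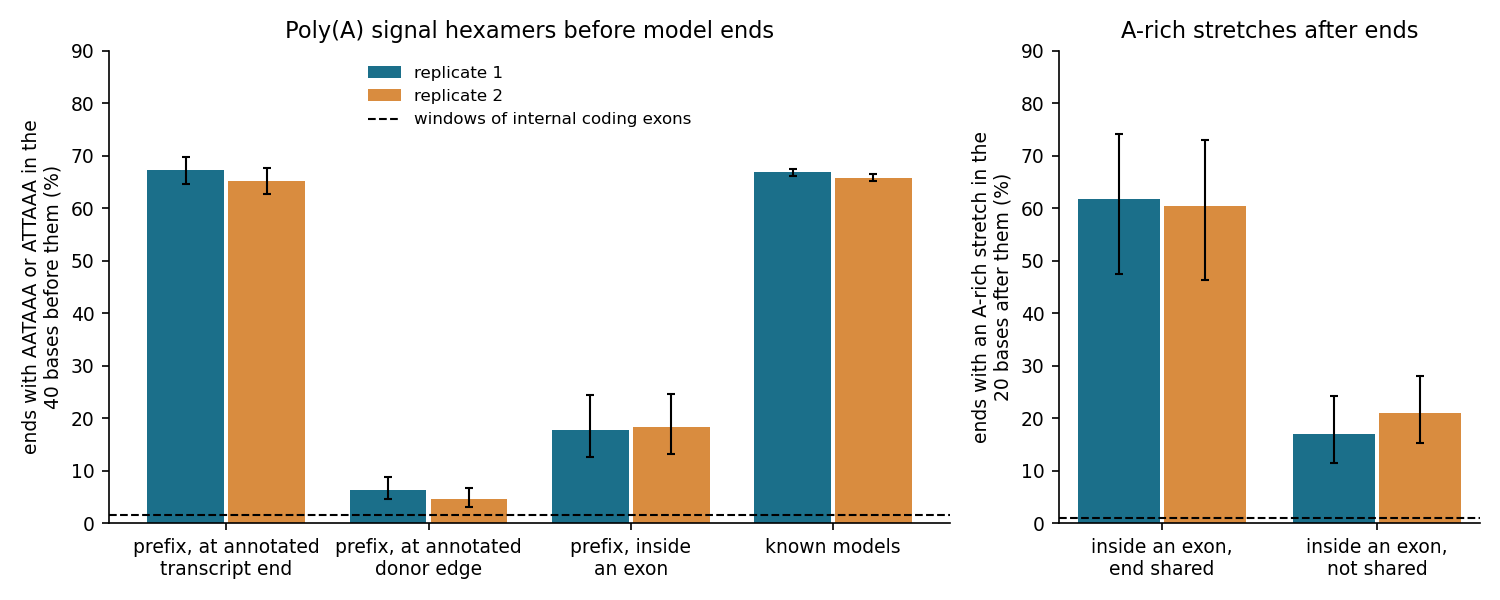
Left, share of model ends (%) with AATAAA or ATTAAA in the 40 bases before them, by kind of end; right, share of ends inside an exon (%) with an A-rich stretch in the 20 bases after them, by whether the other library shared the end. Bars are replicate 1 and replicate 2, error bars 95% Wilson intervals, the dashed line the value of windows of internal exons of coding transcripts; ends inside an exon that lie on an annotated transcript end count in both groups. Prefix ends on annotated transcript ends stand close to known models (67.2% and 65.2% against 66.8% and 65.8%), and shared ends inside an exon are A-rich in 61.7% and 60.4%.

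An end was called shared when the other library had a prefix model of the same gene, strand and intron chain ending within 20 bp. This held for 636 models of each library, 24.4% of those of replicate 1 and 21.4% of those of replicate 2. They carried 1883 prefix reads (40.9%) in replicate 1 and 2087 (40.7%) in replicate 2. By their 3′ ends, prefix models were shared at a lower rate than suffix models. The intervals were 22.8% to 26.1% and 20.0% to 23.0% for prefix models, and 39.97% to 41.5% and 32.4% to 33.7% for suffix models. These are unlike ends: suffix models keep the 3′ part of the transcript, and the 5′ end at which they fall short was not compared. Models of 1 library share genes and are not independent, so the intervals describe the classes and are no test between them. Models with more reads were shared more: the share was 16.1% and 13.9% of single-read prefix models, 55.2% and 44.9% of those with 2 or more reads, and 78.9% and 73.1% of those with 5 or more. Among single-read suffix models it was 28.9% and 20.9%. The class of a chain could differ between the libraries: 41 prefix models of replicate 1 and 47 of replicate 2 had their chain classed as a new splice-site combination in the other library, and 1777 and 2112 had a chain with no read there.

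**Figure D3:**
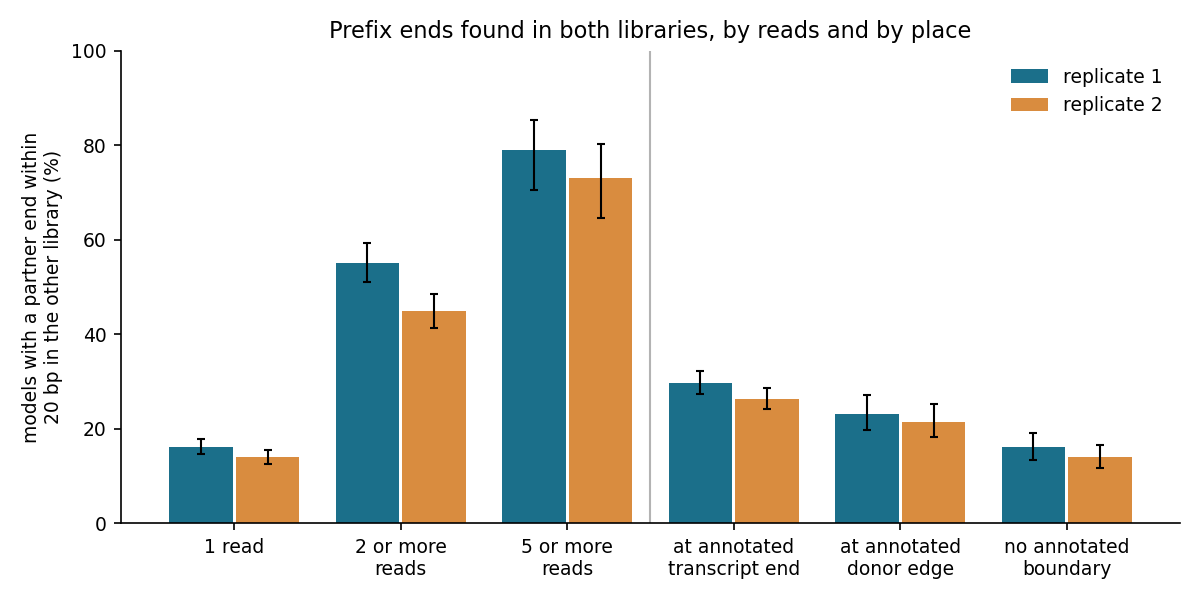
Share of prefix models (%) whose end was found within 20 bp in the other library, by reads of the model (left of the line) and by the coordinate on which the end lies (right of the line), in replicate 1 and replicate 2, with 95% Wilson intervals. Of the groups by reads, sharing is lowest for single reads (16.1% and 13.9%) and highest for models with 5 or more reads (78.9% and 73.1%). Of the groups by coordinate that are drawn, it is lowest for ends at no annotated boundary (16.0% and 13.9%) and highest for annotated transcript ends (29.8% and 26.4%). Ends on other exon boundaries, which are not drawn, were shared in 14.95% and 11.3%.

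Ends outside the annotation that could be early polyadenylation sites by position were taken as those that both libraries shared. They also lay on no annotated boundary and over 50 bp from every annotated end of the gene. There were 106 such models in each library, from 100 genes, with 310 reads in replicate 1 and 388 in replicate 2, and 51 of them ended at the identical base. Most lay in the following intron, 88 in replicate 1 and 87 in replicate 2, at a median of 726 bp and 736 bp past the exon edge. The models with these ends lacked a median of 4 exons in both libraries and kept a median of 56.3% of the coding sequence. Inside an exon there were 6 and 7 such models, which held 83 and 131 reads, 74 and 113 of them in Son. Ends in an intron on an annotated transcript end, as in Sik3 and Tmem164, could also be early sites by position but were left out by this rule. Of all models ending in the following intron, 337 of 896 in replicate 1 and 342 of 997 in replicate 2 stopped within 50 bp of an annotated end.

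Son, which encodes a splicing cofactor of nuclear speckles, had the highest mean prefix share of any gene tested. It had 75 prefix reads among 88 in replicate 1 (85.2%, interval 76.3% to 91.2%) and 113 among 139 in replicate 2 (81.3%, 74.0% to 86.9%). A single intron chain of 3 exons held 74 and 113 of them and ended at chr16:91654699 in both libraries, 5881 bp short of the end of its last exon, so that 5.22% of the coding sequence was kept. The end stood in front of the A-rich stretch shown above. Both libraries gave almost the same share, and the difference of 3.93 percentage points was not past the test (Fisher's exact test, adjusted p = 1).

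Several genes ended inside or at the edge of an exon with similar shares in both libraries. Sec62, a subunit of the protein translocation machinery of the endoplasmic reticulum, had 53 prefix reads of 152 (34.9%) in replicate 1 and 62 of 171 (36.3%) in replicate 2, 53 and 61 of them in a 4-exon model that stopped exactly at a donor edge, chr3:30810026, and kept 38.2% of the coding sequence. Psmd1, a subunit of the 19S regulatory particle of the proteasome, had 27 of 77 (35.1%) and 37 of 107 (34.6%), and its leading model stopped at chr1:86132749, inside an exon and on an annotated transcript end, with 18 A in the next 20 bases. Bmp1, a metalloprotease that trims procollagens, had 31 of 86 (36.0%) and 40 of 123 (32.5%), and its leading models of 30 and 38 reads stopped at chr14:70486639, inside an exon of a parent that the annotation does not hold and on an annotated exon boundary. Plin1, the lipid droplet coat protein perilipin, had 28 of 183 (15.3%) and 30 of 183 (16.4%), and its leading model of 18 reads in each library stopped exactly at a donor edge with 62.5% of the coding sequence kept. Srrm2, a splicing scaffold of nuclear speckles, had 10 of 23 (43.5%) and 8 of 22 (36.4%), with 6.82% of the coding sequence kept at the end shown above. In each of these genes the intervals of the libraries overlapped.

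A second group of genes kept an intron and ran into a downstream exon, in most cases to an annotated end. The coding sequence kept is counted in the exons spliced as in the parent, and leaves out coding bases carried unspliced. Srsf2, an SR splicing factor, had 35 prefix reads of 281 (12.5%) and 38 of 321 (11.8%). Its leading model of 28 and 34 reads ran through the last intron to the annotated end, with the whole coding sequence present. Kank3 had 38 of 270 (14.1%) and 50 of 271 (18.5%), and its leading model of 22 and 32 reads also kept the last intron, which left 97.98% of the coding sequence. Mbd3, a subunit of the NuRD chromatin remodelling complex, had 39 of 186 (20.97%) and 37 of 166 (22.3%). Its leading model held 32 reads in replicate 1, where it stopped at an annotated end, and 27 in replicate 2, where the same chain ran 552 bp further. Qsox2, a sulfhydryl oxidase, had 10 of 20 reads and 15 of 26, all in a model that kept 89.6% of the coding sequence. Hnrnpa2b1, an RNA-binding protein, had 21 of 646 (3.25%) and 35 of 707 (4.95%). Pnisr, a serine- and arginine-rich nuclear protein, had 13 of 32 (40.6%) and 10 of 27 (37.0%) in 1 chain, which ran through an intron to an annotated end in replicate 2 but stopped 1026 bp earlier, inside an exon, in replicate 1. A further group stopped in an intron at an annotated transcript end: AC149090.1, a coding gene on an unplaced scaffold, had 76 of 271 (28.0%) and 68 of 401 (17.0%), Tmem164, a multi-pass membrane protein, 11 of 26 (42.3%) and 14 of 33 (42.4%), and Ccdc9, a coiled-coil protein, 21 of 35 and 12 of 41 (29.3%).

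Among the named genes with ends off every annotated boundary, the leading ones outside Son ended in introns. The rule that named genes by shared ends took only ends past the exon edge. Fzd3, which it left out, had a model of 4 and 11 reads that stopped inside an exon at no annotated boundary. AATAAA began 21 and 24 bases before its end, and the 20 bases after the end held 2 and 1 A. Fam120aos, annotated as a long non-coding RNA, had 14 prefix reads of 15 in replicate 1 and 14 of 19 in replicate 2, all in a 2-exon model that stopped 617 bp and 618 bp past the exon edge. Akr1cl, an aldo-keto reductase, had a model of 10 and 30 reads that stopped 1502 bp and 1503 bp past the edge, in a gene read 2398 and 1818 times. Luc7l2, a homologue of a yeast U1 snRNP protein, had a model of 7 and 9 reads that stopped 407 bp and 404 bp past the edge, and 85.1% of the coding sequence was kept. Fam120b had 9 of 21 reads (42.9%) and 7 of 22 (31.8%) in prefix models that stopped 897 bp past the edge, behind the hexamer shown above. AC110206.1 had a model of 9 and 4 reads that stopped 399 bp into the intron. In each of these genes the ends of the libraries lay within 3 bp.

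**Figure D4:**
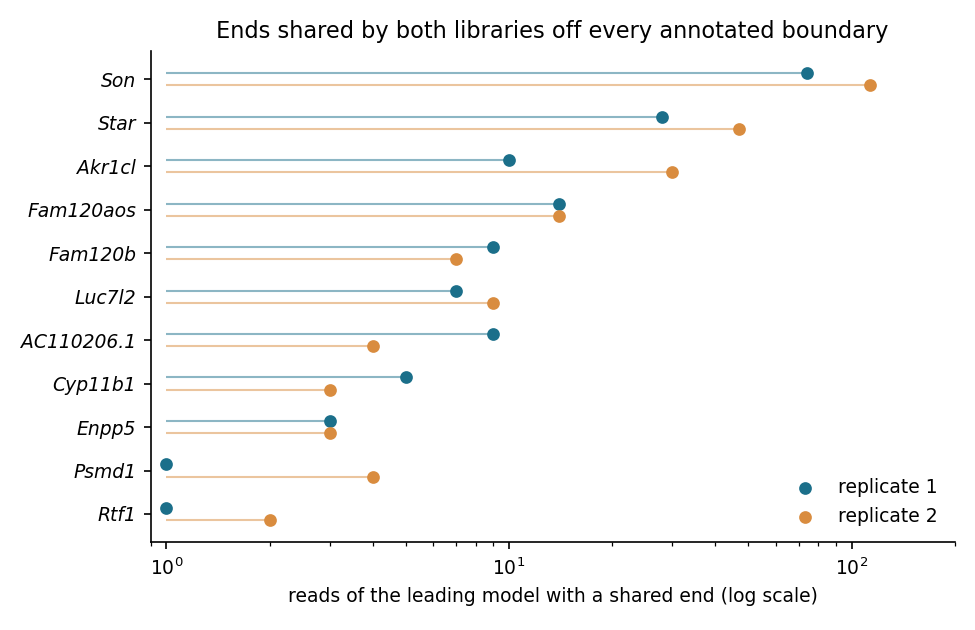
Reads of the leading model with a shared end off every annotated boundary and over 50 bp from annotated ends, for each named gene that has one; log scale, replicate 1 above replicate 2. Son leads with 74 and 113 reads and Star follows with 28 and 47, while the other genes hold 30 reads or fewer in each library.

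The cholesterol carrier gene of steroid synthesis had such an intronic end. Star, whose protein delivers cholesterol to the inner mitochondrial membrane, had 32 prefix reads of 1136 (2.82%, interval 2.00% to 3.95%) in replicate 1 and 55 of 1072 (5.13%, 3.96% to 6.62%) in replicate 2. The leading model held 28 and 47 of them and stopped at chr8:25812423 in both libraries, 540 bp into the last intron and 350 bp short of the last exon. It lacked 1 exon and kept 87.0% of the coding sequence. The difference of -2.31 percentage points, replicate 1 minus replicate 2, did not pass the test over all genes (Fisher's exact test, p = 0.00601, adjusted p = 1).

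Other genes of steroid synthesis ranged widely in prefix share. Cyp11a1, the side-chain cleavage enzyme that starts steroid synthesis, had 27 prefix reads of 8030 (0.336%) in replicate 1 and 23 of 9240 (0.249%) in replicate 2. Of these, 14 in each library belonged to a 2-exon model that stopped at chr9:58017396, which is an annotated exon boundary 967 bp past the last retained exon. Cyp11b2, the aldosterone synthase, had 25 of 515 (4.85%) and 11 of 258 (4.26%), and its leading models of 21 and 8 reads ran through the last intron and stopped 826 bp apart, 2096 bp and 1270 bp from the nearest annotated end. Cyp11b1, the 11β-hydroxylase, had 9 of 3697 (0.243%) and 4 of 2767 (0.145%). Mrap, the accessory protein of the ACTH receptor, had 12 of 270 (4.44%) and 5 of 254 (1.97%), all in a model that ran through the last intron to the annotated end. Cyp11b1 and Cyp11b2 are close paralogs and Cyp21a1 has a pseudogene copy, so reads of these genes are uncertain to the extent that the authors' counting could split them.

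Counted as a list of 16 genes, steroid synthesis had prefix reads in 11 in either library, beside 3384 of all 18053 known genes. The list had 269 of 34251 reads (0.785%) in replicate 1 and 111 of 27527 (0.403%) in replicate 2, beside 0.690% and 0.667% over all known genes. The higher sum of replicate 1 includes 157 reads of Cyp21a1, and it turns round when the reads of every chain that was prefix in either library are counted in both, a count chosen after seeing the data: 273 reads (0.797%) in replicate 1 and 284 (1.03%) in replicate 2. Of the 16 tested for level, 1 was called, higher in replicate 1, beside 3.23% of all 8276 genes called in either direction and 0.967% called higher in replicate 1. At an adjusted p under 0.05 alone (Fisher's exact test), 10 of the 16 passed, each higher in replicate 1, beside 656 of all 8276 genes in either direction. The median log2 ratio of the list was 0.51, beside 0.10 over all genes tested. Cyp11b2 was read at 748.1 CPM in replicate 1, against 318.2 CPM in replicate 2 (log2 ratio 1.23, Fisher's exact test, adjusted p = 9.78e-29). The part of the liver markers, at 443.0 CPM in replicate 1 and 17059.3 CPM in replicate 2, in this difference was not tested. In bulk tissue, fewer cells of a type and less RNA per cell cannot be told apart. The chromaffin list, genes of the medulla's catecholamine cells, had prefix reads in 9 of 18 genes. They came to 17 of 10642 reads (0.160%) in replicate 1 and 19 of 9647 (0.197%) in replicate 2, below the 0.690% and 0.667% of all known genes. Pnmt, which makes adrenaline from noradrenaline, had 3 of 709 (0.423%) and 12 of 769 (1.56%), and the difference did not pass over all genes (Fisher's exact test, p = 0.0364, adjusted p = 1).

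The 23 genes of the cleavage and polyadenylation complexes and the U1 snRNP came to 1430.78 CPM in replicate 1, against 1360.35 CPM in replicate 2, with 9 of 985 reads (0.914%) and 10 of 1103 reads (0.907%) in prefix models, in 11 genes. None of the 20 tested for level was called (Fisher's exact test), beside 3.23% of all genes tested, 1 had an unadjusted p under 0.05, and the median log2 ratio was 0.06 beside 0.10 over all genes tested. Papola, the canonical poly(A) polymerase, had 2 prefix reads of 55 in each library. Of the 8 genes listed for known early polyadenylation, 2 had enough reads to be tested and neither was called. Rbbp6, a subunit of the cleavage complex in human cells, had 1 prefix read of 71 and 1 of 69. In both libraries its model stopped in an intron on the same annotated transcript end. Cstf3, a cleavage stimulation factor subunit, had 0 of 24 and 1 of 24, and Flt1, a VEGF receptor known for a soluble form with an intronic end, had 0 of 3 and 1 of 5. Pcf11, Pdgfra, Egfr, Ighm and Kdr had no prefix read, in at most 5 reads each except 19 of Kdr in replicate 2, so a prefix model could be missed at this depth. For Kdr in replicate 2 the interval of the share reached 16.8%. Early ends of transcripts that are annotated as such would count as known models and were not looked for in these genes. The collagen and matrix list had 7 prefix reads of 3878 (0.181%) in replicate 1 and 11 of 5303 (0.207%) in replicate 2, in 9 of 20 genes, beside 0.690% and 0.667% over all known genes. The liver list had no prefix read in 2050 reads of replicate 1 and 11 in 25916 of replicate 2, where all 16 liver genes tested were called higher in level, beside 2.26% of all genes tested that were called higher in replicate 2.

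Over all 5453 genes with at least 20 reads in each library, 1873 (34.3%) had a prefix read in either library and 659 in both. The median share of those with a prefix read was 0.943% in replicate 1 and 1.18% in replicate 2. A share of at least 10% in both libraries was found for 43 genes, and of at least 50% for 4, which are Son, Rtf1, Sik3 and Qsox2. Rtf1, a component of the PAF1 transcription elongation complex, had 18 of 28 reads (64.3%) and 17 of 30 (56.7%), all but 1 and 2 of them in models that lacked 13 or 14 exons. Sik3, a salt-inducible kinase, had 18 of 25 (72.0%) and 14 of 23 (60.9%), in a model that stopped 815 bp into an intron at an annotated transcript end. Eif5b, a translation initiation factor, had 22 of 30 (73.3%) and 9 of 21 (42.9%), mostly in a model that stopped exactly at a donor edge and lacked 17 exons.

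Few genes were called different between the libraries, by a test that misses part of the differences at these read numbers. With the deposited classes, 3 genes were called, 0.055% of the 5453 tested, 2 of them higher (0.0367%) and 1 lower (0.0183%) in replicate 1, by a two-sided Fisher's exact test at an adjusted p under 0.05 and a difference of at least 10 percentage points; this compares these libraries and not animals. Sptb, the β-spectrin of the red cell skeleton, had 99 of 133 reads (74.4%) in prefix models in replicate 1 and 0 of 106 in replicate 2 (adjusted p = 2.23e-34). That 0 does not mean that the chain was unread, because 62 reads of replicate 2 had it, classed as an internal match. The 2 blood markers stood at 2939 CPM in replicate 1, against 6028 CPM in replicate 2, and their part in the reads of Sptb was not tested. Agpat3, an acyltransferase of phospholipid synthesis, had 36 of 149 (24.2%) and 0 of 189 (adjusted p = 1.95e-11). Dus1l, a tRNA dihydrouridine synthase, had 25 of 102 (24.5%) and 64 of 111 (57.7%; adjusted p = 0.00135). At an adjusted p under 0.05 alone Cyp21a1, the 21-hydroxylase, was added, with 157 of 12570 (1.25%) and 6 of 7862 (0.0763%), a difference of 1.17 percentage points (adjusted p = 1.80e-22).

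In these 4 genes the chains were read in both libraries and classed differently. In replicate 2 the Sptb chain had 62 reads classed as an internal match, the Agpat3 chain 35 reads classed as a new combination and the Cyp21a1 chain 171 reads classed as a new combination, while 52 reads of Dus1l chains were classed as a new combination in replicate 1. With the reads of every chain that was prefix in either library counted in both, the shares were 74.4% and 58.5% in Sptb, 24.2% and 18.5% in Agpat3, 75.5% and 57.7% in Dus1l and 1.26% and 2.25% in Cyp21a1. By this count 0 of 5453 genes were called (0%), Cyp21a1 alone kept an adjusted p under 0.05 (0.000467, a difference of -0.994 percentage points, replicate 1 minus replicate 2) and 25 genes had an unadjusted p under 0.05, against 33 with the deposited classes. The unadjusted p was 0.0122 for Sptb, 0.00883 for Dus1l and 0.227 for Agpat3. Restricting the count to models with an annotated parent gave 0 calls as well, with 18 genes at an unadjusted p under 0.05. Sptb, Agpat3 and Dus1l had no prefix model with an annotated parent, and their class rested on a longer transcript newly built in the library. In Cyp21a1, 2 prefix reads in each library belonged to models with an annotated parent, so most of its 157 in replicate 1 rested on new transcripts too.

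**Figure D5:**
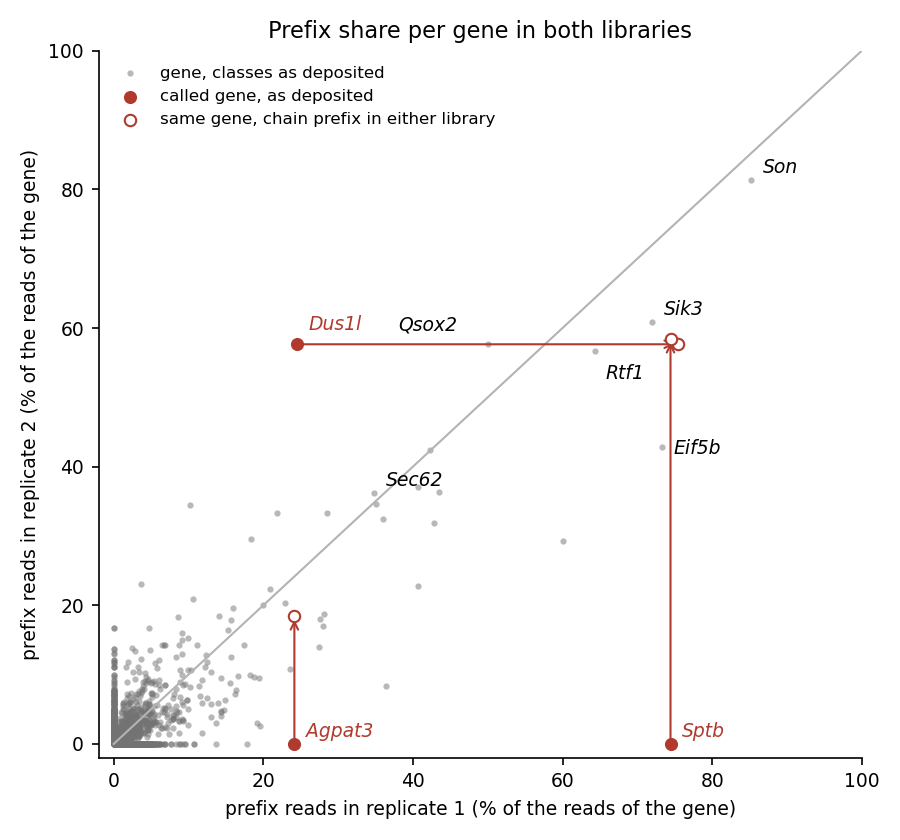
Prefix reads as a share of the reads of the gene (%) in replicate 1 (horizontal) and replicate 2 (vertical), for the 1873 genes with at least 20 reads in each library and a prefix read in either; the line marks equal shares. Filled red points are the 3 called genes with the deposited classes, and open points the same genes when a chain that is prefix in either library is counted in both; Sptb then stands at 74.4% and 58.5% in place of 74.4% and 0%.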

How the data were processed

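The deposited values are raw read counts per transcript model, made by the authors from filtered alignments to mm10 with the GENCODE mouse release 21 annotation, per the notes deposited with the files; models without a read are not listed. The deposited annotation carries TALON tags. The aligner is not given in the sources used here. Exons came from the deposited annotations (mm10, counted from 1); every known model had the exons of the reference annotation. CPM used mouse reads without spike-ins. Depth was 688436 and 810818 mouse reads, so 1 read equals 1.45 and 1.23 CPM, and 0 reads allow up to 3.

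Shares per gene and gene levels were compared with two-sided Fisher's exact tests and Benjamini-Hochberg adjustment over all genes tested (SciPy 1.17.1, Python 3.11.15), tested on simulated data. There the share test recovered 57% of genes changed by 20 percentage points and 93% of those changed by 40. The level test recovered 31% of genes changed 2-fold and 82.5% of those changed 4-fold. Genes that were not called can therefore still differ. Levels counted as different when the adjusted p was below 0.05 and the log2 ratio 1 or more in size (pseudocount 0.5 CPM), among genes with 20 reads over both libraries. TMM (edgeR 4.0.16) and DESeq2 1.42.0 size factors were alternatives for scaling. Named genes were the 15 with most prefix reads, the 10 with the highest share, the 10 with most reads in shared ends past the exon edge, called genes, list members with 10 or more prefix reads and the early polyadenylation list; others were named after their values were seen. The members and lists were chosen with earlier results of these data known. A genome was not used here, so sequences were read from annotated exons, a choice made after seeing the data.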

Additional observations from a re-analysis of the deposited data

How the results depend on the processing

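The results were recomputed under 63 alternatives, 8 of them chosen after seeing the data, and 40 kept the value within the spread of the libraries or within 1.5 times of a count. The 4804 chains became 1018 with at least 2 reads and 167 with at least 5, and 2610 to 2966 with a single library. The mean prefix share of reads, 0.651%, became 0.773% over multi-exon models of known genes, 0.363% with at least 2 reads and 0.194% with at least 5. The 43 genes at 10% or more in both libraries became 89 with a minimum of 10 reads, 17 with 50, and 77 to 85 with 1 library left out. Models that lost 1 exon, 42.9% on average, became 34.7% against the transcript losing most, 37.4% against the one with most reads and 48.9% weighted by reads. Ends in the following intron, 34.0%, became 34.6% and 34.5% with those parents. The 636 shared ends became 222 with at least 2 reads in each library, 245 without ends near annotated ends and 107 without ends on an annotated boundary. Ends inside an exon with an A-rich stretch, 29.6%, became 36.8% at 10 A of 20. The 3 called genes stayed 3 or 4 under the other read minimums, differences and denominators, but became 0 when chains were counted alike in both libraries and 0 with annotated parents alone. The steroid synthesis list's difference in summed share, replicate 1 minus replicate 2, was 0.382 percentage points and turned to -0.235 when chains were counted alike. No gene of the end-processing list was called under any scaling, pseudocount or minimum. No paired analysis was possible because both libraries belong to 1 group. Most models rest on 1 read, so depth limits which ends can be shared. Sequence around ends in introns was read for a minority only, from annotated exons, because no genome was used here.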
